A study of Mus musculus with 158 samples.

Results

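A pair of maps of the same kind of cell was compared: the places where the protein CTCF was bound and the places where chromatin was open to the nuclease DNase I, in mouse embryonic stem cells (mESCs) from the hybrid of a C57BL/6J and a CAST/EiJ parent (B6xCAST). Each map was a deposited list of hotspots, regions in which reads were enriched over the local background. The members were every hotspot of the B6xCAST mESC CTCF ChIP-seq list and of the B6xCAST mESC DNase-seq list on the 19 autosomes, which gave 92712 CTCF hotspots and 112353 DNase hotspots of the 4138890 hotspots in the 22 deposited lists of the series. The other 20 lists came from DNase-seq of B cells, kidney, liver and lung of 5 adult F1 hybrids of C57BL/6J, namely B6x129, B6xC3H, B6xCAST, B6xPWK and B6xSPRET, and serve here as outside measurements. The stem cells carried no named allele or treatment beyond their hybrid genome, and were kept on gelatin in a mixture of 2i and serum medium with LIF, conditions that hold them undifferentiated. The CTCF library came from formaldehyde-fixed, sheared chromatin pulled down with an antibody to CTCF, and the DNase library from short fragments released by DNase I from fresh nuclei. The title of the CTCF sample begins with the name of the DNase assay while its antibody field names CTCF. The study's own listing of libraries gives another hybrid, B6xC3H, for these stem cell libraries, while the sample labels and the main text give B6xCAST, and the hotspot lists hold no genotype that could settle it. There was 1 CTCF list and 1 DNase list, so no difference between the assays could be tested. Values are given with their spread over the 19 autosomes or with a Wilson 95% interval, which covers counting error only, and read depth cannot be computed from the lists. The study's listing of libraries gives fewer analysed reads for the CTCF library than for either DNase library. It also gives both DNase libraries a lower share of reads inside enriched regions than the CTCF library. That share was likewise below the mean the study reports for its tissue DNase samples. The part of depth and of this share in the differences was not tested.

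CTCF is a zinc finger protein that binds a long, well conserved DNA motif. It blocks the ring-shaped cohesin complex as cohesin extrudes DNA into loops, and so marks loop and domain borders, preferentially where 2 motifs point towards each other. It also insulates enhancers from promoters, as at the imprinted gene H19 and its neighbour Igf2, where CTCF binds only the unmethylated copy. A bound factor displaces nucleosomes, and the exposed DNA beside it is cut by DNase I. DNase hotspots therefore report promoters, enhancers and insulators together, without naming the factor.

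The cells were checked against marker genes, by counting genes with a DNase hotspot within 1 kb of the annotated start. Of 10 stem cell markers 9 had one, the exception being the nuclear receptor gene Esrrb, and of 10 markers of liver, lung, kidney and B cells 0 did. All 5 fibroblast markers (Col1a1, Col1a2, Thy1, Twist1 and Prrx1) and all 4 early differentiation markers also had a DNase hotspot at the start, and 4 and 2 of them had CTCF. Over all 20807 autosomal protein-coding genes the share with a DNase hotspot at the start was 65.9% and the share with a CTCF hotspot 27.5%. The part of any other cells in either list was not tested.

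The sequences below come from strong CTCF hotspots with and without open chromatin. All were chosen to hold a match to the CTCF motif, so the match itself is not a result. The core of the CTCF consensus, 12 letters long, was searched on both strands, allowing 1 mismatch, in the 200 bp on the centre of each hotspot. Each stretch holds 24 bases on either side of the match, is read 5′ to 3′ on the strand of the match from the mm10 reference (GRCm38, RefSeq), and has the match in capitals. The first 3 lie in the narrowest of the CTCF hotspots at the ceiling of the significance scale that also had a DNase hotspot. The next 3 lie in high-ranking CTCF hotspots that had no DNase hotspot. Of these last 3 the first and the second were at the ceiling and the third had a −log10 FDR of 94.4. In the whole class 4 CTCF hotspots without DNase were at the ceiling, so the 3 shown are not its top 3.
chr17:6697363-6697422 (+), with DNase, in an intron of Sytl3: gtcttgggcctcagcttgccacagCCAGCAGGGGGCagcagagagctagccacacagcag
chr16:3115472-3115531 (+), with DNase, intergenic: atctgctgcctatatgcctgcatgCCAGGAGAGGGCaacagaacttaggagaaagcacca
chr6:125030680-125030739 (-), with DNase, in an exon within Zfp384: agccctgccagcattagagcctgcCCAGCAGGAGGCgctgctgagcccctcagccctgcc
chr5:95232429-95232488 (-), without DNase, intergenic: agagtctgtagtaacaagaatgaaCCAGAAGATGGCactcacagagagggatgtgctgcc
chr1:178072959-178073018 (+), without DNase, in an intron of Catspere2: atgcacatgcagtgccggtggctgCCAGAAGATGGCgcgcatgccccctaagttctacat
chr11:116023885-116023944 (+), without DNase, in an exon within H3f3b: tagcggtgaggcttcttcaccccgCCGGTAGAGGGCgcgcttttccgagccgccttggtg
All 3 hotspots without DNase matched with 1 mismatch, and of the 3 with DNase the first matched with 0.

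A second set shows the CTCF hotspot with a match nearest to the start of genes that the field knows for their CTCF sites or for the stem cell state. It covers H19, a maternally expressed RNA gene, the pluripotency factor genes Pou5f1, Sox2 and Nanog, the Hox genes Hoxa9 and Hoxd9, which pattern the body axis, and Ctcf itself.
H19, chr7:142581888-142581947 (-), intergenic: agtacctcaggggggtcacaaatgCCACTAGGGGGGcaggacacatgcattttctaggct
Pou5f1, chr17:35508423-35508482 (+), intron of Pou5f1: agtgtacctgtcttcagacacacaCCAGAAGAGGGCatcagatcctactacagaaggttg
Sox2, chr3:34647863-34647922 (+), intron of a gene that is not protein-coding: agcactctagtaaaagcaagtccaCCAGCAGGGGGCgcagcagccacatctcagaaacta
Nanog, chr6:122708986-122709045 (+), intron of Nanog: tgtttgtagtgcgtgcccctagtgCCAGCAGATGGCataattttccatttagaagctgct
Hoxa9, chr6:52240517-52240576 (-), promoter of Hoxa10: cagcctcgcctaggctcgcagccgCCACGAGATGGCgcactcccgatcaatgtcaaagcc
Hoxd9, chr2:74702371-74702430 (+), intergenic: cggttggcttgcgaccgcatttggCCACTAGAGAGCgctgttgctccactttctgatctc
Ctcf, chr8:105622542-105622601 (+), within Agrp: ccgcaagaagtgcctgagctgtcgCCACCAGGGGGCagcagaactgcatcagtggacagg
The hotspot centre lay 3794 bp from the start of H19, 2444 bp from that of Pou5f1, 2519 bp from Sox2, 1582 bp from Nanog, 9382 bp from Hoxa9, 4628 bp from Hoxd9 and 14015 bp from Ctcf. The −log10 FDR of these hotspots was 15.2 at H19, 6.58 at Pou5f1, 27.3 at Sox2, 9.31 at Nanog, 71.8 at Hoxa9, 47.1 at Hoxd9 and 58.3 at Ctcf. Those at H19, Sox2, Hoxa9 and Ctcf overlapped a DNase hotspot, and those at Pou5f1, Nanog and Hoxd9 did not, so the stronger site near Hoxd9 and the weaker ones in the introns of Pou5f1 and Nanog fell in the same class. For contrast, the strongest DNase hotspot without CTCF that held the joint SOX-OCT motif (TTGTNATGC), the element that SOX2 and OCT4 bind together, is shown with that motif in capitals.
SOX-OCT, chr17:76111950-76112006 (+), DNase without CTCF, intergenic: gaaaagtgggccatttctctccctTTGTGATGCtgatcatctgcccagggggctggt
Its −log10 FDR was 49.0, and 0 of the 25 DNase hotspots without CTCF at the ceiling held the motif.

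CTCF hotspots were wider and more significant in the middle of their distribution, and DNase hotspots had the longer tail. The median CTCF hotspot was 311 bp wide (quartiles 125 and 491 bp) and the median DNase hotspot 261 bp (149 and 449 bp). Over the 19 autosomes the median ranged from 271 to 353 bp for CTCF and from 252.5 to 272 bp for DNase, so the ranges met at their ends. Of the DNase hotspots 6.02% were over 1 kb wide, against 0.524% of the CTCF hotspots. CTCF hotspots covered 30.7 Mb and DNase hotspots 41.4 Mb, of which 10.35 Mb was shared. Column 9 of each list, the −log10 of the hotspot's false discovery rate (FDR), had a median of 4.81 for CTCF and 3.58 for DNase and was capped at 100, a ceiling that 311 CTCF and 73 DNase hotspots reached. When the 50000 most significant hotspots of each list were taken, the medians were 477 bp for CTCF and 461 bp for DNase, closer together than in the whole lists.

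Of the CTCF hotspots 36213, or 39.1% (38.7 to 39.4%), overlapped a DNase hotspot by 1 bp or more, and 36755 DNase hotspots, or 32.7% (32.4 to 33.0%), overlapped a CTCF hotspot. By chromosome the shares ran from 35.1 to 45.6% and from 28.1 to 36.2%. The overlapping CTCF hotspots were the wide and significant ones. Their median width was 517 bp and their median −log10 FDR 24.7, against 189 bp and 2.55 for the 56499 CTCF hotspots without DNase. DNase hotspots with and without CTCF differed less, with medians of 283 and 236 bp and −log10 FDRs of 6.38 and 2.80. A wide region is also more likely to touch another, and with 150 bp windows on the centres in place of whole hotspots the shares were 32.3% and 26.7%.

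**Figure D1:**
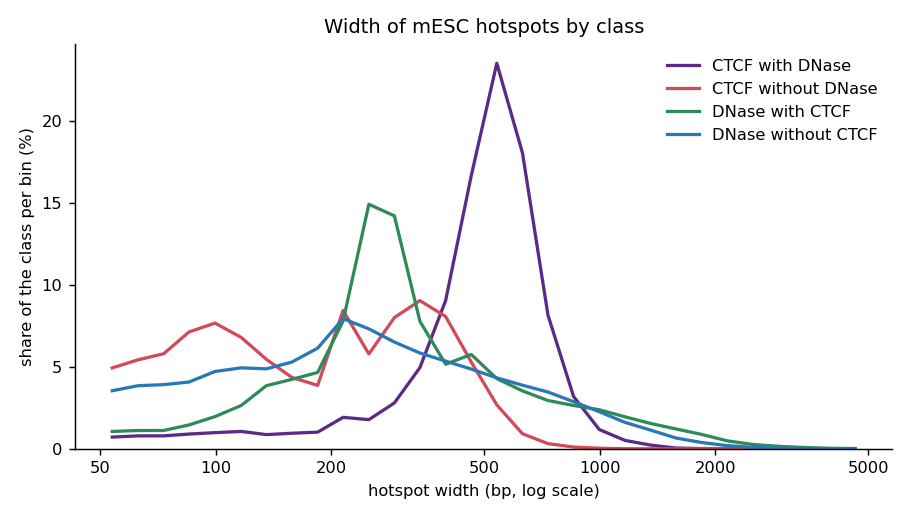
Width of mESC hotspots (bp, log scale) against the share of each class per width bin (%), for CTCF hotspots with and without a DNase hotspot and DNase hotspots with and without a CTCF hotspot. CTCF hotspots with DNase have 1 main peak around their median of 517 bp, and DNase hotspots with CTCF peak near 283 bp, while the classes without overlap spread towards narrow widths.

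The assays ranked their shared places differently. When CTCF hotspots were split by column 9 into deciles, 10 classes of equal size from the weakest (1) to the strongest (10), the share with a DNase hotspot was 7.06% in decile 1, 17.03% in decile 5, 45.5% in decile 7, 72.6% in decile 8 and 97.6% (97.2 to 97.9%) in decile 10. DNase hotspots did not behave the same way. Their share with CTCF was 13.9% in decile 1, reached 54.2% (53.3 to 55.1%) in decile 9 and was 48.7% (47.8 to 49.6%) in decile 10. In that decile 50.3% of the hotspots lay within 1 kb of a protein-coding gene start, against 21.9% in decile 9.

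**Figure D2:**
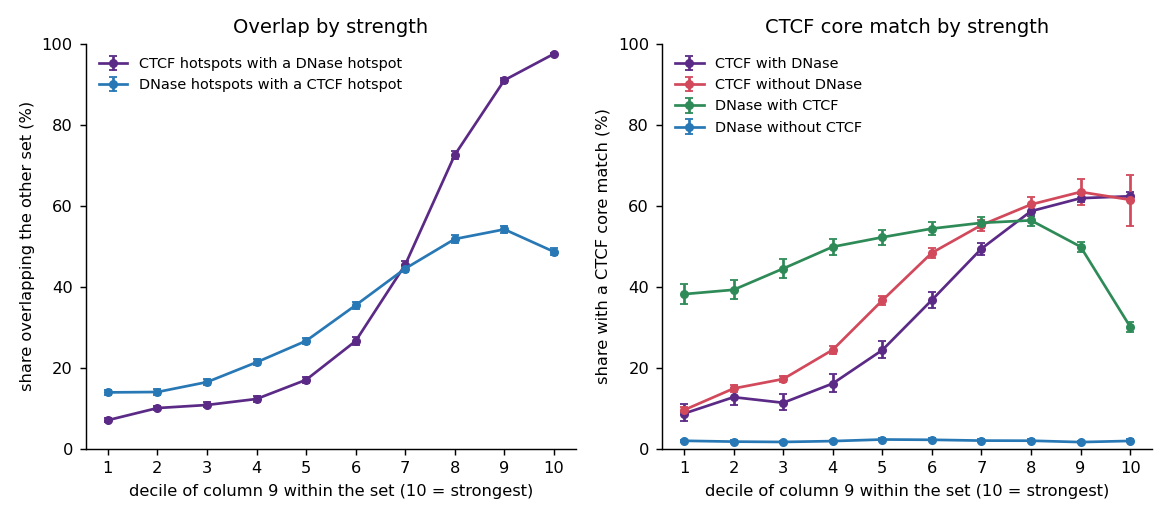
Left, share of hotspots that overlap the other list (%) in each decile of column 9, the −log10 FDR, from weakest (1) to strongest (10). Right, share with a CTCF core match (%) in the 200 bp on the centre, by class and decile. Bars are Wilson 95% intervals. CTCF overlap with DNase climbs to 97.6%, DNase overlap with CTCF tops out at 54.2% in decile 9, and DNase hotspots without CTCF stay near 1.94% matches throughout.

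Where 1 CTCF hotspot met exactly 1 DNase hotspot, in 32199 pairs, the pair shared a centre more than a strength. The centres were a median of 46 bp apart and within 100 bp in 76.2% of pairs. Over these pairs, which are places in the same 2 lists and not replicates, Spearman's rho between the −log10 FDRs was 0.279. It was 0.391 in the 28518 pairs away from gene starts and 0.034 in the 3681 pairs within 1 kb of a start. Widths turned round between the settings. Away from starts the CTCF hotspot was the wider of the pair in 84.9% of cases, with medians of 529 bp for CTCF and 272 bp for DNase. At starts it was wider in 22.6%, with medians of 417 and 794 bp.

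CTCF hotspots lay farther from gene starts than DNase hotspots. The median distance from the hotspot centre to the nearest protein-coding start was 35.3 kb for CTCF and 23.0 kb for DNase. Within 1 kb of a start lay 6.34% (6.18 to 6.49%) of CTCF hotspots and 15.9% (15.6 to 16.1%) of DNase hotspots, with ranges over the autosomes of 4.71 to 9.78% and 13.03 to 20.1%. The classes split further. The share at starts was 13.6% for CTCF with DNase, 1.66% for CTCF without DNase and 17.3% for DNase without CTCF. CTCF without DNase had a median distance of 50.7 kb, and 36.0% of it lay over 100 kb from any protein-coding start. Read the other way, 84.0% of the CTCF hotspots within 1 kb of a start overlapped a DNase hotspot, 48.0% of those 1 to 5 kb away and 22.7% of those over 100 kb away. Among DNase hotspots the share with CTCF was lowest at starts, at 26.8%, and highest 5 to 20 kb away, at 39.1%. Introns held 42.6% of CTCF and 39.9% of DNase hotspots and intergenic DNA 43.8% and 35.6%.

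DNase hotspots were also closer to each other. The median distance between neighbouring centres was 11.8 kb for CTCF and 6.27 kb for DNase, with ranges over the autosomes of 9.24 to 14.9 kb and 4.48 to 8.13 kb that did not overlap. Neighbours within 1 kb made up 13.2% of CTCF and 26.1% of DNase intervals, and 33.8% of the base pairs in CTCF hotspots lay inside a DNase hotspot. Among the 50000 most significant hotspots of each list the spacing was 19.8 kb for CTCF and 19.7 kb for DNase. Spread over the genome differed as well. In 1 Mb bins the count of hotspots had a coefficient of variation of 0.536 for CTCF and 0.779 for DNase. The 334 bins with 0 protein-coding genes held a median of 20 CTCF and 6 DNase hotspots, and the 111 bins with over 30 genes a median of 76 and 106. CTCF hotspots per DNase hotspot were accordingly 2.32 in the former and 0.714 in the latter.

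Intervals between neighbouring CTCF hotspots mostly held no DNase hotspot of their own. Of 92693 such intervals 67.7% held 0 DNase hotspots without CTCF, while the 3.80% with 5 or more held 38.7% of all of them. A few intervals were crowded. On chromosome 3 an interval of 242 kb around the chitinase-like genes Chia1, Chil3 and Chil4 (chr3:106093618-106336047) held 80, and on chromosome 10 a pair of adjoining intervals of 59.3 and 65.8 kb at Clvs2 (chr10:33528458-33653559) held 74 and 54. An interval of 76.4 kb at the splicing factor gene Cwc22 on chromosome 2 held 60. These hotspots were mostly weak, with a median −log10 FDR of 2.73, 2.32, 2.54 and 2.02 in the order given. In the 20 adult lists the same intervals held 4 to 20 hotspots on chromosome 3, 0 to 4 and 0 to 6 at Clvs2, and 0 to 4 at Cwc22. An interval of 333 kb at the zinc finger gene Trps1 on chromosome 15 held 53 in the stem cells and 14 to 50 in the adult lists, and so was crowded in both. Whether copy number in this cell line, or mapping in repeated DNA, moved with the crowding was not tested.

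The CTCF motif was far more frequent in CTCF hotspots than in DNase hotspots without CTCF, though most CTCF hotspots held no match. The share in DNase hotspots without CTCF lay slightly above that of the genome at large with 1 mismatch allowed and below it with 0. The core matched, with at most 1 mismatch, in 38.0% of CTCF hotspots, in 51.6% (51.0 to 52.1%) of those with DNase and in 29.4% (29.0 to 29.7%) of those without. It matched in 1.94% (1.85 to 2.04%) of DNase hotspots without CTCF and in 1.58% of all 11979192 autosomal windows of the same length. With 0 mismatches the shares were 15.5% for CTCF with DNase, 3.58% for CTCF without, 0.0688% for DNase without CTCF and 0.0960% for the windows. DNase hotspots with CTCF matched in 48.3%.

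**Figure D3:**
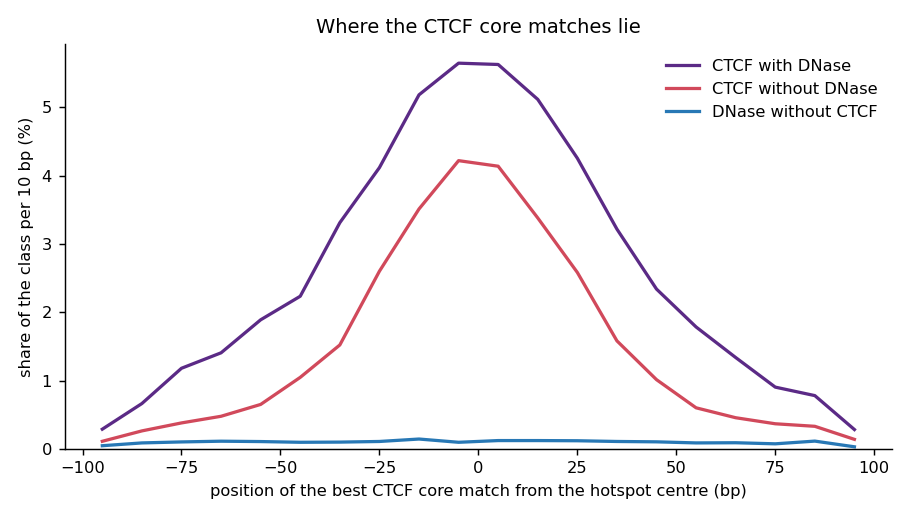
Position of the best CTCF core match relative to the hotspot centre (bp) against the share of the class per 10 bp (%). Both CTCF classes peak at the centre, with median distances of 25 bp with DNase and 19 bp without, and DNase hotspots without CTCF stay low across the window.

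The matches lay near the centre of the hotspots, at a median of 25 bp for CTCF with DNase and 19 bp for CTCF without, and at 15 bp from the centre of the DNase hotspots with CTCF. In DNase hotspots without CTCF the median was 44 bp. At matched strength the CTCF classes were close at both ends of the scale. In decile 1 the core matched in 8.70% of hotspots with DNase and 9.57% of those without. In decile 10 it matched in 62.4% of 9045 hotspots with DNase and 61.5% (55.0 to 67.6%) of 226 without. In the deciles between them the class without DNase matched more often, with the widest gap in decile 5 (36.7% against 24.4%). In decile 8 the shares were 60.4% (58.4 to 62.2%) against 58.7% (57.5 to 59.9%). These intervals overlapped, as did those in deciles 2 and 9. CTCF with DNase matched in 55.9% of hotspots away from starts and in 23.99% of those within 1 kb of one.

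The CTCF classes also differed in repeated DNA. In CTCF hotspots without DNase the 200 bp on the centre was at least 50% soft-masked, the mark for repeats in the reference, in 29.9% of cases, against 11.8% for CTCF with DNase and 8.07% for DNase without CTCF. Of the core matches themselves 56.2% lay wholly in soft-masked bases in CTCF without DNase and 20.9% in CTCF with DNase. Within deciles of column 9 the difference kept its direction. In decile 1 22.2% of CTCF hotspots without DNase and 5.50% of those with DNase were mostly repeat, and in decile 9 45.6% and 12.5%. Reads that were not placed uniquely had been dropped before the calling, and the part of mapping in these shares was not tested. The mean GC content was 45.3% in CTCF without DNase, 50.6% in CTCF with DNase, 51.0% in DNase without CTCF and 41.9% over the autosomal windows. The ratio of observed to expected CpG dinucleotides was 0.192, 0.383 and 0.408 in those classes.

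Several short motifs of other factors were more frequent in the open sites without CTCF than in the rest. Each was searched as spelled, on both strands, and a match is a run of letters and not a proof of binding. SOX-OCT (TTGTNATGC) was found in 1.55% of DNase hotspots without CTCF away from starts, 0.544% of CTCF hotspots with DNase away from starts and 0.527% of all windows. The octamer of OCT4 (ATGCAAAT) was found in 3.02%, 1.01% and 1.70%, and the element of the nuclear receptor ESRRB (TCAAGGTCA) in 1.59%, 0.333% and 0.427%. The letters of KLF factors (GGGNGNGGC) stood in 14.5%, 5.66% and 2.53%. All 4 belong to factors of the stem cell network, and all 4 were more frequent in open sites without CTCF than in either CTCF hotspots or windows.

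At gene starts both kinds of open site held several motifs more often than the windows. Mean GC content there was 61.0% in DNase without CTCF and 61.1% in CTCF with DNase, against 41.9% in windows. The SP, ETS, NRF1, CRE and YY1 letters each hold a CpG, and the part of base composition was not tested. Within 1 kb of a start DNase hotspots without CTCF held the SP letters (GGGGCGGGG) in 10.8% and CTCF hotspots with DNase in 7.37%, against 0.354% of windows. The ETS letters (CCGGAAGT) were found in 3.49% and 2.15% against 0.124%, the NRF1 letters (GCGCATGCG) in 1.36% and 1.22% against 0.0307%, and the CRE letters (TGACGTCA) in 1.60% and 0.851% against 0.111%. The YY1 letters (AAGATGGCG) were found in 1.43% and 0.810% against 0.208%. They overlap the end of the CTCF core, so that 1 stretch can match both, as in the Catspere2 sequence above. In whole classes the AP-1 and ZNF143 letters lay near the windows and the GATA letters below them. The REST and E-box letters lay above the windows in each class, most of all in DNase without CTCF. The rise over windows in DNase without CTCF was thus not confined to the stem cell motifs. AP-1 (TGANTCA) stood in 4.94% of CTCF with DNase, 6.23% of CTCF without, 6.50% of DNase without CTCF and 5.96% of windows. The letters of GATA factors (AGATAAG) stood in 1.73%, 2.26%, 2.06% and 2.93%, ZNF143 (ACTACAATT) in 0.105%, 0.127%, 0.155% and 0.146%, REST (TTCAGCACC) in 0.340%, 0.260%, 0.848% and 0.188%, and the E-box (CACGTG) in 3.52%, 3.02%, 4.05% and 1.99%.

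The strand of the match allowed neighbouring CTCF hotspots to be read as pointing towards each other (convergent), the same way (tandem) or apart (divergent). If strands were independent, 25% of pairs would fall in each of the first and last kinds. Among 9940 neighbouring pairs of CTCF hotspots with DNase in which both matched, 22.3% were convergent, 52.0% tandem and 25.6% divergent. Distance changed the balance. Convergent pairs made up 17.9% of pairs up to 5 kb apart, 18.1% from 5 to 20 kb, 22.2% from 20 to 50 kb, 27.2% (25.4 to 28.9%) from 50 to 200 kb and 34.3% (30.7 to 38.2%) of the 609 pairs over 200 kb apart. Divergent pairs fell from 30.5% at 5 to 20 kb to 17.2% (14.4 to 20.4%) over 200 kb. Among 6507 pairs of neighbouring CTCF hotspots without DNase no such trend was seen. Convergent pairs made up 20.5% up to 5 kb and 23.9% (21.8 to 26.2%) from 50 to 200 kb, and 21.95% (14.4 to 32.1%) of the 82 pairs over 200 kb. The difference between the classes was not tested.

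Gene starts were open far more often than they were bound by CTCF, and CTCF at a start nearly always came with open chromatin. Of 20807 protein-coding genes 5291, or 25.4%, had both a CTCF and a DNase hotspot within 1 kb of the start, 433 had CTCF only, 8423 DNase only and 6660 neither. DNase was present at 92.4% of the starts with CTCF, and CTCF at 38.6% of the starts with DNase. In 4947 of the 5291 genes with both, a CTCF and a DNase hotspot overlapped.

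Pluripotency genes mostly had open starts. Of 18 listed genes 17 had DNase and 7 had CTCF at the start, beside 65.9% and 27.5% of all genes. Sox2, Nanog, Pou5f1, Klf2 and Prdm14 had DNase only. Tbx3, a T-box factor, had CTCF with a −log10 FDR of 28.0 beside DNase at 4.27, and the growth factor gene Fgf4 had 47.9 beside 2.80. Zfp42, which encodes REX1, had CTCF at 8.86 beside DNase at 49.2, and Klf5 2.55 beside 15.4. The larger −log10 FDR thus belonged to CTCF at some of these genes and to DNase at others. The assays differ in depth, so these values are not a direct comparison of strength. At Klf5 the CTCF and DNase hotspots did not overlap.

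Of 14 genes of early lineages 10 had DNase at the start and 5 CTCF, shares of 71.4% and 35.7% near the 65.9% and 27.5% of all genes. Those with CTCF included Nes, an intermediate filament gene of neural progenitors, at 33.8, Mesp1, a factor of early mesoderm, at 41.0, and Gata6, a factor of primitive endoderm, at 17.8. The starts of Pax6, Cdx2, Hand1 and Gata4 had neither. Among the genes of the loop machinery, 11 of 12 autosomal members had DNase and 7 had CTCF at the start. CTCF was found at Ctcf itself (20.2), at the cohesin subunit gene Smc3 (58.6), at the cohesin loader gene Nipbl (49.7) and at Pds5a (33.4) and Pds5b (33.2), whose products regulate cohesin. The cohesin genes Rad21 and Stag1 and the cohesin release factor gene Wapl had DNase only. Ctcfl, the testis paralogue of Ctcf, was the only member with CTCF (6.68) and no DNase.

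Of 20 imprinted genes 13 had DNase and 7 CTCF at the start, near the shares of all genes (65.9% and 27.5%), and 5 had both. Peg10 had CTCF at 42.1 and Gnas at 24.5. Peg13, a non-coding RNA gene, had CTCF at 18.8 and DNase at 31.8, and Peg3 had 10.0 and 58.7. Meg3 and Nnat had CTCF only. H19 had no hotspot within 1 kb of its start. Its 100 kb neighbourhood held 10 CTCF hotspots and 7 DNase hotspots, and all 7 DNase hotspots overlapped CTCF, whereas at Pou5f1 22 of 29 DNase hotspots did not. Kcnq1ot1, an antisense RNA gene, had 0 CTCF and 2 DNase hotspots in that window.

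**Figure D4:**
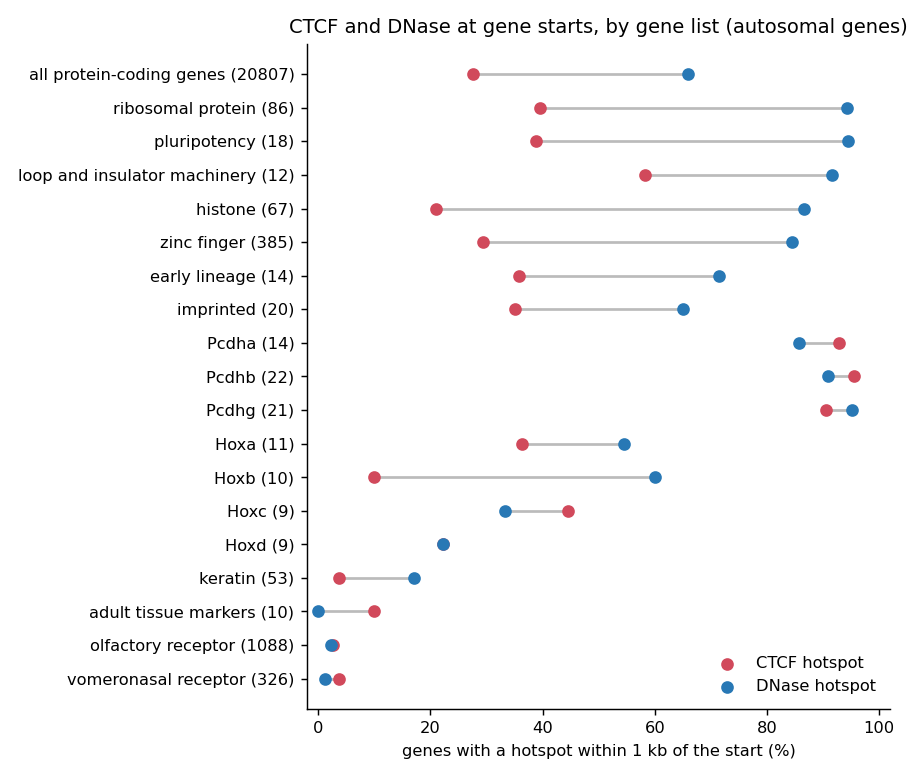
Share of the autosomal genes of each list (number in brackets) with a CTCF hotspot or a DNase hotspot within 1 kb of the start (%). The grey line joins the 2 values, and at Hoxd both are 22.2%. Most lists have DNase well to the right of CTCF, while in the protocadherin clusters both lie between 85.7 and 95.5%.

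The clustered protocadherins stood apart from the other families by their counts. These genes encode cell surface proteins of neurons, chosen 1 by 1 through CTCF sites at their many promoters. CTCF lay at the starts of 13 of 14 Pcdha, 21 of 22 Pcdhb and 19 of 21 Pcdhg genes, and DNase at 12, 20 and 20. Over all protein-coding genes 27.5% of starts had CTCF and 65.9% DNase. The CTCF hotspot at Pcdha1 was at the ceiling of 100 beside a DNase hotspot at 5.08, and at Pcdhb2 CTCF reached 31.6 beside DNase at 5.13. The median neighbourhood of a Pcdhb gene held 14.5 CTCF hotspots, 10 DNase hotspots and 0 DNase hotspots without CTCF. Neighbouring genes share these windows and are not independent.

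The Hox clusters were mixed. For the counts that follow, 65.9% of all protein-coding genes had DNase at the start and 27.5% had CTCF. The Hox and protocadherin genes named here were chosen after their values were seen. Of the Hoxa genes 4 of 11 had CTCF at the start, strongest at Hoxa10 (71.8), Hoxa7 (44.6) and Hoxa5 (41.6), and DNase there was between 2.38 and 5.23. Of the Hoxb genes 1 of 10 had CTCF, Hoxb5 at 44.5, and 6 had DNase. Of the Hoxc genes 4 of 9 had CTCF and 3 DNase, and 2 of the 4 start within 1 kb of each other and share their hotspots. Of the Hoxd genes 2 of 9 had each, and only Hoxd10 had both. Genes named Rpl or Rps, which cover the widely expressed ribosomal proteins, had DNase at 81 of 86 starts and CTCF at 34. This list was made by name and also holds genes such as Rps6kc1 that do not encode ribosomal proteins. Histone genes had DNase at 58 of 67 starts and CTCF at 14, and 58 of 67 histone gene neighbourhoods held at least 2-fold more DNase than CTCF hotspots, against 23.1% of all genes. Histone genes lie in clusters, and neighbours share these windows. The neighbourhood of Hist1h4f held 35 DNase and 4 CTCF hotspots. Zinc finger genes of the Zfp series had DNase at 325 of 385 starts (84.4%) and CTCF at 113 (29.4%), the latter near the share of all genes. The neighbourhoods of Zfp385a and Zfp978 each held 19 CTCF hotspots. Keratin genes had DNase at 9 of 53 starts and CTCF at 2.

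Chemosensory receptor genes, which serve smell and pheromone sensing in neurons, mostly had neither mark at their starts. Over all protein-coding genes 65.9% had DNase and 27.5% CTCF at the start. Of 1088 olfactory receptor genes 25 had DNase and 29 had CTCF at the start, and of 326 vomeronasal receptor genes 4 and 12. Their neighbourhoods nevertheless held CTCF more often than DNase. In the 100 kb around the start, the median olfactory receptor gene had 2 CTCF and 1 DNase hotspots, 512 of the 1088 had 0 DNase hotspots, and 181 had 0 CTCF hotspots. Olfr221 and Olfr70 had 13 CTCF hotspots and 11 DNase hotspots each, and Vmn2r29 had 15 and 1.

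Over all genes the 2 counts in the 100 kb neighbourhood moved together, with a Spearman's rho of 0.656 across 20807 genes whose windows overlap. A neighbourhood was called when it held at least 5 hotspots in all and at least 2-fold more of one kind. By this rule 1134 genes, 5.45%, had more CTCF and 4799, 23.1%, more DNase. Olfactory and vomeronasal receptor genes made up 15.7% of the former and 1.94% of the latter. Of the genes richer in CTCF 33.3% had DNase at their start, and of those richer in DNase 80.04%.

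The 10 neighbourhoods with the largest surplus of CTCF, at most 1 per 500 kb, included Hjurp on chromosome 1, with 57 CTCF and 23 DNase hotspots, Lemd2 on chromosome 17 with 37 and 11, Kctd19 on chromosome 8 with 30 and 11, and Spire2, also on chromosome 8, with 28 and 14. Hjurp, the chaperone that loads the centromeric histone, had a CTCF hotspot at the ceiling at its start, and 44 of its 57 CTCF hotspots had no DNase. Ddost had 24 and 9 and the giant cadherin gene Fat4 22 and 6. Serpinb9e (17 and 1), Catsperb (16 and 0) and Sult2a1 (15 and 0) were nearly or wholly without DNase hotspots.

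The largest surplus of DNase was at Clvs2, with 109 DNase and 2 CTCF hotspots. The next was Shh, the hedgehog ligand gene, with 73 and 4. Then came 6030452D12Rik with 64 and 6, B3galnt2 with 59 and 4, Vmn1r47 with 53 and 2, BC107364 with 63 and 14, Prn with 52 and 4, the asparagine synthetase gene Asns with 59 and 11, Cwc22 with 50 and 3, and Fcgr3 with 52 and 6. At Shh, Clvs2, Prn and 6030452D12Rik the start had DNase only.

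The adult lists gave a measurement that had no part in defining the mESC classes. CTCF hotspots with DNase were found again in adult DNase lists far more often than either other class. With the hybrids in the order B6x129, B6xC3H, B6xCAST, B6xPWK, B6xSPRET, the share overlapped in kidney was 80.3%, 79.7%, 83.9%, 80.2% and 77.8%. In B cells, whose lists were the shortest, it was 72.5%, 57.3%, 77.4%, 69.6% and 65.6%. Means were 80.4% ± 2.24 (SD, n = 5) in kidney, 79.4% ± 5.09 in liver, 73.7% ± 7.82 in lung and 68.5% ± 7.60 in B cells. For DNase hotspots without CTCF they were 34.2% ± 2.21, 31.4% ± 3.76, 32.8% ± 6.15 and 22.3% ± 3.48, and for CTCF without DNase 15.9% ± 1.62, 18.5% ± 4.78, 12.3% ± 5.07 and 11.6% ± 4.81. In each tissue the first class was higher than both others in 5 of 5 hybrids and the ranges did not overlap.

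**Figure D5:**
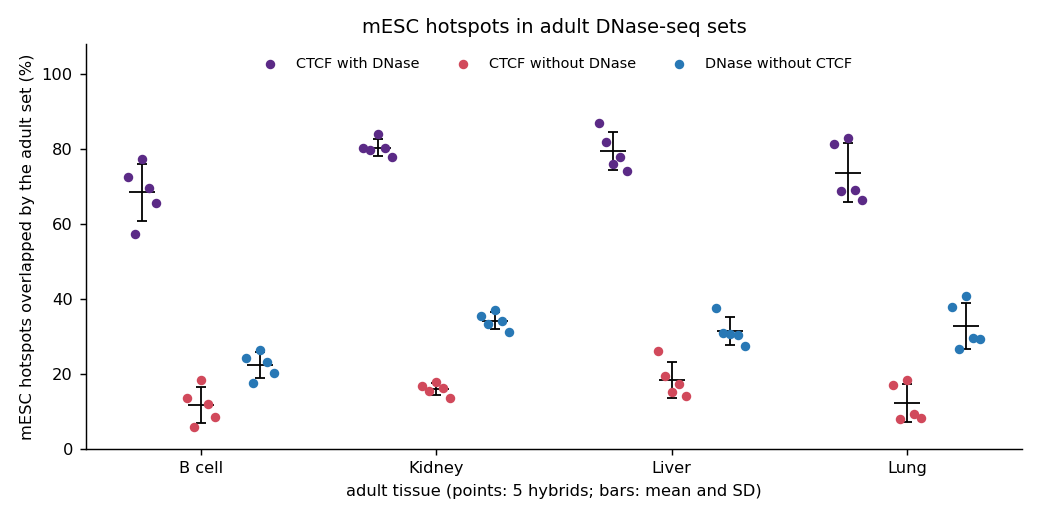
Share of mESC hotspots (%) overlapped by the DNase-seq list of each adult tissue, for CTCF hotspots with DNase, CTCF hotspots without DNase and DNase hotspots without CTCF. Points are the 5 hybrids of a tissue, and bars their mean and SD. CTCF with DNase lies at 57.3% or above, and the other classes at 40.8% or below.

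An exact two-sided sign-flip permutation test over the 5 hybrids of a tissue gave p = 0.0625 for each of the 12 differences, which is the smallest value this design allows, and 0.0625 after Benjamini-Hochberg adjustment. The tests could therefore not pass 0.05. CTCF with DNase exceeded CTCF without DNase by 56.8 to 64.5 percentage points and DNase without CTCF by 40.8 to 48.0 points, by tissue mean. Adult lists differed in length, the shortest with 76055 hotspots (B cells, B6xC3H) and the longest with 286482 (liver, B6x129), and the longest list of a tissue gave the highest share of CTCF with DNase in B cells, liver and lung, though not in kidney. The classes also differed in strength. The median −log10 FDR was 24.7 for CTCF with DNase, 2.55 for CTCF without DNase and 2.80 for DNase without CTCF. The part of list length and of strength in the shares was not tested.

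Promoters and other places behaved differently. Within 1 kb of a start the share of DNase without CTCF found again in kidney was 79.3% ± 2.72 (SD, n = 5), against 90.02% ± 1.61 for CTCF with DNase. Away from starts it was 24.8% ± 2.18 against 78.9% ± 2.35. CTCF without DNase minus DNase without CTCF was -10.7 points in B cells, -18.3 in kidney, -12.95 in liver and -20.6 in lung over all places. Away from starts it was -1.43 in B cells, where 1 of 5 hybrids had the opposite sign (exact permutation p = 0.1875), and -9.33, -3.99 and -11.6 in the other tissues, lower in 5 of 5 hybrids (p = 0.0625 each). Of the CTCF hotspots with DNase 48.0% were overlapped in all 20 adult lists and 61.9% were present in all 4 tissues, counted as at least 3 of the 5 hybrids. Of DNase without CTCF over all places 12.7% were in all 20 lists and 16.8% in 4 tissues. Away from starts these shares were 4.37% and 7.15%, against 44.9% and 59.6% of CTCF with DNase away from starts. There 49.6% of DNase without CTCF were in 0 lists, against 6.87% of CTCF with DNase. Of DNase hotspots without CTCF, 33.6% with a CTCF core match and 29.4% without were in 10 or more lists.

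CTCF hotspots without DNase in stem cells were not all closed elsewhere. Of these 42.3% were overlapped in at least 1 adult list, 12.6% in 10 or more and 1.81% in all 20. The share rose with their strength. Their median width rose as well, from 76 bp in decile 1 to 575 bp in decile 10, and its part was not tested. Among the 226 in decile 10 of column 9, 90.7% (86.2 to 93.8%) were in at least 1 adult list and 34.1% (28.2 to 40.5%) were present in all 4 tissues, compared with 32.3% and 2.04% among those in the weaker 50% of CTCF hotspots. With a core match 61.8% were in at least 1 adult list, and without one 34.2%. In mostly repeated sequence 7.81% were in 10 or more lists, and in the rest 14.7%.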

How the data were processed

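The authors trimmed reads with Trimmomatic, aligned them to mm10 with BWA, kept uniquely placed reads and called hotspots with hotspot2 at an FDR of 5%. The deposited column 9 is the −log10 of each hotspot's FDR, capped at 100, and the lists hold no read counts, so depth cannot be computed from them. The labels name 2 mESC DNase-seq samples, and the list is filed under 1 of them, while the methods describe calling on the combined DNase data of a cell type, and whether this list is that call is not stated in the sources used here. Adult lists are named by tissue and hybrid. RSEM expression tables were not used here. Overlap was 1 bp or more. Gene starts came from GENCODE vM21, sequences from RefSeq GRCm38. Neighbourhoods reached 50 kb either side of a start. Named genes were the listed families, the 10 largest differences in each direction and the sequences by fixed rank rules. The lists and members were chosen with earlier results of these data known. Functions were tested on simulated data. Python 3.11.15, numpy 2.4.6, scipy 1.17.1 and pandas 2.3.3 were used, with Wilson intervals and exact permutation tests over hybrids. Chromosomes X and Y were left out of the comparisons, and 1 gene that the rule names is not reported here.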

Additional observations from a re-analysis of the deposited data

Results flagged for a closer look

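On chromosome X, which the comparisons leave out, there were 5268 CTCF and 2858 DNase hotspots, or 1.84 CTCF hotspots per DNase hotspot, and on chromosome Y 130 and 56, or 2.32. Over the 19 autosomes the ratio ran from 0.743 to 0.925. Of the CTCF hotspots on X 20.5% had a DNase hotspot, and the median −log10 FDR of CTCF hotspots on X was 2.43. The study's methods describe genomes without chromosome Y, so the hotspots listed on Y depart from that description.

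The gaps between the classes in adult tissues differed between tissues in 10 of 18 comparisons, by an exact permutation of the tissue labels over 5 hybrids each, with adjusted p-values of 0.0159 in 9 of them and 0.0429 in the remaining 1. Differences are given in percentage points, the first tissue minus the second. The gap between CTCF with and without DNase was smaller in B cells than in kidney (-7.64) and than in liver (-4.10) and larger in kidney than in liver (3.54). The gap between CTCF with DNase and DNase without CTCF was larger in kidney (5.34) and liver (7.15) than in lung. For CTCF without DNase minus DNase without CTCF, B cells differed from kidney by 7.60 and from lung by 9.87, kidney from liver by -5.35 and from lung by 2.27, and liver from lung by 7.62. The same hybrids recur in each tissue. Paired by hybrid in an exact sign-flip permutation test, chosen after seeing the data, 0 of these 10 passed, with p = 0.0625, the smallest this design allows, and an adjusted p of 0.102, while 10 of 10 had the same direction in 5 of 5 hybrids. The length of the adult lists differs between tissues, and its part was not tested.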

How the results depend on the processing

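Each comparison rests on 1 list per assay, and a hotspot's strength is known from its FDR alone. Of 132 alternative values, 94 kept within the stated spread or on the same side of the test, and 38 moved. All 38 concerned the stem cell lists, and most values for those lists moved. The adult values all stayed, but their tests could not have changed side. Their exact sign-flip permutation p was 0.0625, or 0.125 with a hybrid left out, the smallest value possible in each case. Their part of the 94 was thus fixed by the design.

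Median widths of CTCF and DNase were 389 and 312 bp at an FDR of 1%, 477 and 461 bp for the 50000 highest, and 343 and 294 bp after merging within 150 bp. The share of CTCF with DNase was 44.1% at FDR 1%, 44.2% for the 50000 highest, 23.1% at 50% overlap and 32.3% on centre windows. The share of DNase with CTCF was 37.0%, 44.1%, 27.8% and 26.7%, so that at 50% overlap it was the larger of the pair. Hotspots near a start made up 15.8% of CTCF and 26.9% of DNase within 5 kb, 9.75% and 19.97% with all gene starts, and 6.95% and 23.1% for the 50000 highest. Spacing of CTCF and DNase was 14.04 and 10.01 kb after merging and 19.8 and 19.7 kb for the 50000 highest. Within 5 kb of the start, 9714 genes had both, 970 CTCF only, 5853 DNase only and 4270 neither, so that genes with both outnumbered those with DNase only. Neighbourhoods 2-fold richer in DNase numbered 2348 with the 50000 highest, where 1293 were richer in CTCF. With 0 mismatches the CTCF core matched in 8.22% of CTCF, 4.98% of DNase, 15.5% of CTCF with DNase, 3.58% of CTCF without and 0.0688% of DNase without CTCF. Over whole hotspots it matched in 40.0%, 20.6%, 58.0%, 28.5% and 3.12%. CTCF with DNase stayed above CTCF without, and that above DNase without CTCF, under both settings, while all DNase hotspots lay above CTCF without DNase with 0 mismatches and below it otherwise.

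The adult differences kept their sign in each alternative run over all places. Leaving out each hybrid moved the adult differences between 40.2 and 64.7 points for CTCF with DNase against the other classes and between -21.1 and -10.4 for CTCF without DNase against DNase without CTCF. An adult FDR of 1% gave 40.1 to 64.3 and -20.4 to -11.1. Windows of 150 bp on the mESC centres, chosen after seeing the data, gave 41.2 to 63.7 and -19.3 to -9.79. The adult tests were already paired within hybrids. For the stem cell lists, no paired analysis was possible because each assay has 1 list.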
